A study of Mus musculus with 18 samples.

Results

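The livers described here are those of mice that lack the aryl hydrocarbon receptor (AHR) in hepatocytes and of mice that lack it in hepatic stellate cells, and the quantity followed is how far the response to TCDD differs between them. For each gene the change with TCDD in AhRΔHSC livers was subtracted from the change with TCDD in AhRΔHep livers, on the log2 scale, so that a negative value means a smaller rise or a larger fall with TCDD in AhRΔHep livers. The comparison rests on 12 of the 18 livers of the study, 3 in each of 4 groups chosen by their labels: AhRΔHep with TCDD, AhRΔHep with vehicle, AhRΔHSC with TCDD and AhRΔHSC with vehicle. They are called dHep TCDD, dHep vehicle, dHSC TCDD and dHSC vehicle below. The other 6 livers, from AhRfl/fl mice labelled WT, 3 with TCDD and 3 with vehicle, share no animal with the comparison and are set beside it. They also enter the shared estimate of spread in the statistical fit, and so bear on the p-values of the comparison. All mice were female and on a C57BL/6 background, TCDD (2,3,7,8-tetrachlorodibenzo-p-dioxin) was given by gavage at 100 µg/kg in peanut oil or the oil was given alone, and the doses came at 4-day intervals over 92 days. The ages, the promoter that drives the deletion and the part of the gene deleted are not given in the sources used here. RNA came from 10 mg of whole liver, so each value sums all cell types of the organ, and fewer cells of a type cannot be told apart from less RNA per cell. The labels number each mouse, and libraries are named here by group and mouse number, in the order 4, 10 and 16 for dHep TCDD, 3, 9 and 15 for dHep vehicle, 6, 12 and 18 for dHSC TCDD, and 5, 11 and 17 for dHSC vehicle.

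AHR is a transcription factor that waits in the cytoplasm, enters the nucleus when it binds a ligand such as TCDD, pairs with ARNT and binds a short DNA element near its target genes. The targets best known in liver encode the cytochromes P450 CYP1A1, CYP1A2 and CYP1B1, the AHR repressor AHRR and the ADP-ribosyltransferase TIPARP, of which AHRR and TIPARP both damp the receptor's activity. Hepatocytes make up most of the liver's mass and RNA. Stellate cells are few, store vitamin A when quiescent, and can turn into myofibroblasts that lay down collagen.

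The promoters of 6 genes on which the results turn are shown first, as the 250 bases before the gene start given by RefSeq, on the build GRCm38.p6 and written 5′ to 3′ on the gene's own strand. The capitals mark GCGTG, the core of the AHR-bound element, or CACGC, the same core on the opposite strand. Cyp1a1, Cyp1b1 and Ahrr are shown as known AHR targets, Col9a2 as the gene with the largest negative difference, and Hao1 and Mmd2 as the genes with the largest positive differences among genes that averaged 1 CPM or more over the 12 libraries.
Cyp1a1, chr9:57697363-57697612, plus strand: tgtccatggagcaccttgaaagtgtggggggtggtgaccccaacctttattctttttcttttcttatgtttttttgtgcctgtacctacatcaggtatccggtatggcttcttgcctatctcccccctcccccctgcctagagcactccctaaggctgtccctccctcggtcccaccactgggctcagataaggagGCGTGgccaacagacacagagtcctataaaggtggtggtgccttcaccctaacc
Cyp1b1, chr17:79715062-79715311, minus strand: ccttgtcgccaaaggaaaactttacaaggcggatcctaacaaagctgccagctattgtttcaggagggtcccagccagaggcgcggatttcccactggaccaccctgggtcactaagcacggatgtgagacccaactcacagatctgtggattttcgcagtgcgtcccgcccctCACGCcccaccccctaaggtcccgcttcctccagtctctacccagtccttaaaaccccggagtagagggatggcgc
Ahrr, chr13:74292332-74292581, minus strand: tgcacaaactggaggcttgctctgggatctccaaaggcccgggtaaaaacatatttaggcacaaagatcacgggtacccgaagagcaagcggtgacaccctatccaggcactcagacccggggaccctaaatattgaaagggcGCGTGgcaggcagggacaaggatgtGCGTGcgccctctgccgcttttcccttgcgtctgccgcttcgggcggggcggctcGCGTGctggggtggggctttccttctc
Col9a2, chr4:121039316-121039565, plus strand: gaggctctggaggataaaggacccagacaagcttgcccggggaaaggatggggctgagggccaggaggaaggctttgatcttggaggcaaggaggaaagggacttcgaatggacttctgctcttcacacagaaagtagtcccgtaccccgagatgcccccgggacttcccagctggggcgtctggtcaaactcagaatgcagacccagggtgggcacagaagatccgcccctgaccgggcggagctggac
Hao1, chr2:134554353-134554602, minus strand: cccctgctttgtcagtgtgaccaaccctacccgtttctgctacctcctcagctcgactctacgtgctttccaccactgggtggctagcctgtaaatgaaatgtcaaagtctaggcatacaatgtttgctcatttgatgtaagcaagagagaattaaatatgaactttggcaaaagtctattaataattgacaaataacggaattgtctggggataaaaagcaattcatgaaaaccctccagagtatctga
Mmd2, chr5:142608753-142609002, minus strand: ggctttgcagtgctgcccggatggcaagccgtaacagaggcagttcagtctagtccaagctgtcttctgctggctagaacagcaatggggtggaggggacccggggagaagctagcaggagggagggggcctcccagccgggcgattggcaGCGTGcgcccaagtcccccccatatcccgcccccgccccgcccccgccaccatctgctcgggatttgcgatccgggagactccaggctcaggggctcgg

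The core lay 54 bases before the start of Cyp1a1, 76 bases before that of Cyp1b1, 99 bases before that of Mmd2, and 107, 82 and 27 bases before that of Ahrr. The windows of Col9a2 and Hao1 held none. The gene coordinates given further below come from another annotation, GENCODE, whose gene bounds differ. By those, the Cyp1a1 window lies wholly and the Col9a2 window mostly within the gene, and the Hao1 window overlaps the gene slightly. Of the 64 genes whose difference of responses was called, 40 could be matched to a RefSeq window and 24 could not. GCGTG on either strand was in 9 of the 22 windows (40.9%) of called genes with a negative difference and the larger change in dHSC livers, in 1 of 3 (33.3%) with the larger change in dHep livers, and in 3 of 15 (20.0%) of those with a positive difference, against 30.9% of the 27025 genes with a window. The longer form TTGCGTG, which contains GCGTG, was in none of the 40 and in 1.08% of all genes with a window.

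Total counts ran from 12706490 to 27240877 over the 12 libraries. Ahr itself (chromosome 12, 35497974 to 35535038, GRCm38) had 94.9, 60.8 and 29.0 CPM (counts per 1e6 counts, scaled for library composition) in dHep TCDD livers and 56.8, 28.1 and 29.1 in dHep vehicle livers. In dHSC livers Ahr had 58.3, 60.8 and 23.2 CPM with TCDD and 45.5, 40.0 and 32.7 CPM with vehicle. These ranges overlap, and reads from the undeleted part of the gene still count, so Ahr does not check the labels here. The hepatocyte markers Alb, Apoa1, Ttr, Hnf4a and Cps1 were counted in all 12 libraries, and of the 5 stellate cell markers Reln, Des, Hgf and Colec11 were counted in all 12. Lrat, the fifth, and Timp1 are listed at 0 in all libraries, and both lie over another gene, so their 0 is not read as absence. There were 5 libraries that stood apart, in that 2.2% to 4.25% of their counts lay outside protein-coding genes, against at most 1.76% in the others. They were dHep vehicle 9 and 15, dHep TCDD 16, dHSC vehicle 17 and dHSC TCDD 18, and dHSC TCDD 18 also had 28.4% of its counts in mitochondrially encoded genes. Results are therefore also given for a fit without these 5, which leaves 1 dHep vehicle liver, assumed there to vary like the other groups. Among the WT livers, 1 vehicle library held 1740 CPM of skeletal muscle genes, while none of the 12 libraries above exceeded 4.66 CPM.

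More genes were called with TCDD in dHSC livers than in dHep livers. With edgeR's quasi-likelihood test and Benjamini-Hochberg adjustment over 14835 genes, which gave all adjusted p-values below, 10 genes (0.0674%) were called at an adjusted p under 0.05 for TCDD against vehicle in dHep livers, 4 higher (0.027%) and 6 lower (0.0404%). In dHSC livers 379 genes (2.55%) were called, 254 higher (1.71%) and 125 lower (0.843%), and in WT livers 798 (5.38%), 509 higher (3.43%) and 289 lower (1.95%). The difference itself was called for 64 genes (0.431%), 23 with a positive value (0.155%) and 41 with a negative value (0.276%), while its median over all genes tested was -0.025 log2. In a fit of only the 12 dHep and dHSC libraries, without WT, 27 differences of 14331 tested were called, 24 of them among the 64. That fit called 0 genes for the dHep response and 259 for the dHSC response.

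The 254 genes called higher with TCDD in dHSC livers had a median log2 change of 0.34 in dHep livers, where 4 of them (1.57%) were called higher, and of 2.98 in WT livers, where 217 (85.4%) were. The 125 genes called lower in dHSC livers had a median log2 change of -0.24 in dHep livers, where 1 (0.8%) was called lower, and of -2.39 in WT livers, where 108 (86.4%) were. Chosen in WT livers instead, the 509 genes called higher there had a median of 0.53 in dHep livers, with 4 called, and of 1.76 in dHSC livers, with 217 called (42.6%). The 289 genes called lower in WT livers had a median of -0.31 in dHep livers, with 0 called, and of -1.38 in dHSC livers, with 108 called (37.4%). These WT values share no library with either deletion, and the counts of genes called in dHSC or WT livers are tests within each genotype, not tests of the difference between genotypes. Of the 14835 genes tested, 994 had an unadjusted p under 0.05 in dHep livers, against 1816 in dHSC livers and 2484 in WT livers.

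All 23 genes with a called positive difference had the larger change in dHSC livers, where their log2 changes with TCDD ran from -9.41 to -1.40, against -1.63 to 1.65 in dHep livers, and 21 of them were called lower with TCDD in WT livers. Of the 41 genes with a called negative difference, 35 had the larger change in dHSC livers, between 1.16 and 12.56, against -4.42 to 2.87 in dHep livers, and 33 of these were called higher in WT livers. The other 6 had the larger change in dHep livers. The difference and each response share libraries, so these values, and the separations that follow, describe genes chosen by the difference and test nothing further. Under TCDD the 3 dHep livers lay wholly above the 3 dHSC livers for 23 of the 64 genes, wholly below them for 40 and overlapped them for 1. Within dHSC livers the TCDD libraries lay wholly above the vehicle libraries for 37 genes, wholly below for 23 and overlapped for 4. Within dHep livers the TCDD and vehicle libraries overlapped for 39 of the 64. In the 2 vehicle groups they overlapped for 45, with dHep vehicle wholly above dHSC vehicle for 14 and wholly below for 5.

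**Figure D1:**
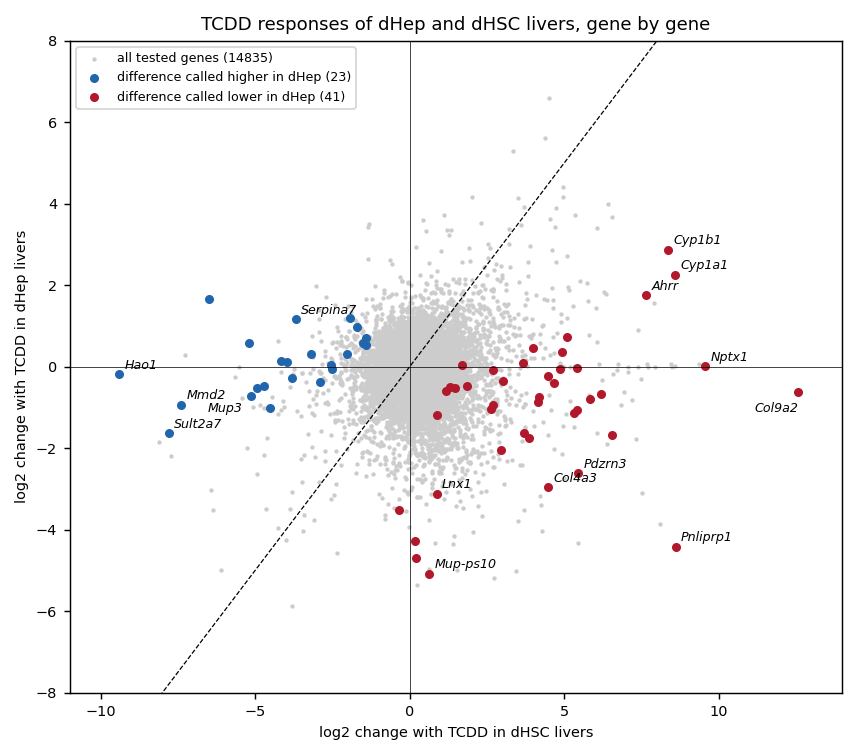
Each point is 1 of the 14835 genes tested, placed by its log2 change with TCDD in dHSC livers (x axis) and in dHep livers (y axis), with n = 3 mice in each group. Blue points are the 23 genes with a called positive difference of dHep minus dHSC, red points the 41 with a called negative one, and the dashed line marks equal change; most colored points lie far out along the x axis and near 0 on the y axis.

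Of the 13 known AHR target genes tested, 7 rose with TCDD in dHSC livers and 10 in WT livers, where 1.71% and 3.43% of all genes did, and none was called in dHep livers, where 0.027% of all genes rose. In WT livers 1 of the 13 was called lower, as 1.95% of all genes were. In dHep livers the log2 changes of the 13 ran from -0.03 to 5.29, with a median of 0.69, and 12 were positive. They ran from -1.72 to 8.59 in dHSC livers (median 1.95, 12 positive) and from -2.21 to 9.19 in WT livers (median 2.67, 11 positive). Cyp1a1 (chromosome 9, 57687928 to 57703824), the classical marker of AHR activation, had 304, 283 and 334 CPM in dHep TCDD livers and 78.9, 86.9 and 25.9 CPM in dHep vehicle livers. In dHSC livers Cyp1a1 had 5490, 5580 and 2450 CPM with TCDD and 16.7, 3.24 and 15.1 CPM with vehicle. No TCDD library overlapped a vehicle library in either genotype, the lowest dHSC TCDD library lay far above the highest dHep TCDD library, and every dHep vehicle library lay above every dHSC vehicle library. The log2 change was 2.26 ± 0.69 (SE) in dHep livers, which missed the threshold (adjusted p = 0.473), and 8.59 ± 0.92 in dHSC livers, and the difference was -6.33 ± 1.02 (adjusted p = 0.00899). In WT livers, with 5870, 8330 and 5090 CPM with TCDD and 33.2, 5.04 and 8.04 CPM with vehicle, the change was 8.70.

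Cyp1b1, which metabolises estrogens and polycyclic hydrocarbons, had 101, 89.6 and 71.9 CPM in dHep TCDD livers and 10.7, 21.2 and 3.92 CPM in dHep vehicle livers. In dHSC livers Cyp1b1 had 937, 1040 and 291 CPM with TCDD and 1.54, 2.14 and 3.24 CPM with vehicle. The lowest dHSC TCDD library, mouse 18, still lay above all dHep TCDD libraries, and the difference was -5.49 ± 0.81 (adjusted p = 0.00514). Ahrr, the repressor that competes with AHR for ARNT, had 6.15, 4.33 and 4.42 CPM in dHep TCDD livers and 1.54, 2.14 and 0.679 CPM in dHep vehicle livers. In dHSC livers Ahrr had 66.8, 69.9 and 29.4 CPM with TCDD and 0.181, 0.221 and 0.422 CPM with vehicle. Its groups were ordered as for Cyp1a1, and the difference was -5.90 ± 0.76 (adjusted p = 0.00163). All 3 differences kept an adjusted p under 0.05 when any 1 of the 12 libraries was left out. Without the 5 libraries that stand apart they were -7.20 for Cyp1a1 (adjusted p = 0.0968), -5.93 for Cyp1b1 (0.00474) and -6.62 for Ahrr (0.00817).

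For Cyp1a2, the main constitutive CYP1 enzyme of hepatocytes, the gap between the genotypes was there with vehicle as well. Its CPM was 284, 513 and 447 in dHep TCDD livers and 256, 344 and 473 in dHep vehicle livers, against 14000, 14400 and 7560 in dHSC TCDD livers and 1660, 1290 and 1690 in dHSC vehicle livers. The dHep TCDD and vehicle libraries overlapped, and both lay below every dHSC library. The difference of responses was -2.74 ± 0.75 (adjusted p = 0.174), while dHep TCDD against dHSC TCDD livers gave -4.85 ± 0.61 (adjusted p = 0.000618) and the 2 vehicle groups gave -2.11 ± 0.54 (adjusted p = 0.928).

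Tiparp had 14.2, 18.2 and 19.6 CPM in dHep TCDD livers and 8.50, 10.1 and 7.17 CPM in dHep vehicle livers. In dHSC livers Tiparp had 94.9, 114 and 69.9 CPM with TCDD and 10.0, 11.7 and 7.46 CPM with vehicle. The dHSC TCDD libraries lay above the 9 others, and the difference of -2.25 ± 0.47 just missed the threshold (adjusted p = 0.0506). Nqo1, a quinone reductase under both AHR and NRF2, had a difference of -1.41 ± 0.44 (adjusted p = 0.289). Of the 13 AHR target genes tested, 3 had a called negative difference, as 0.276% of all genes did, and none a positive one. Their median difference was -1.41, against -0.025 over all genes tested, and 2 of the 13 had a positive value, of up to 2.13. With TCDD alone, 7 of the 13 were lower in dHep than in dHSC livers, a comparison that called 220 genes (1.48%), 94 higher (0.634%) and 126 lower (0.849%).

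**Figure D2:**
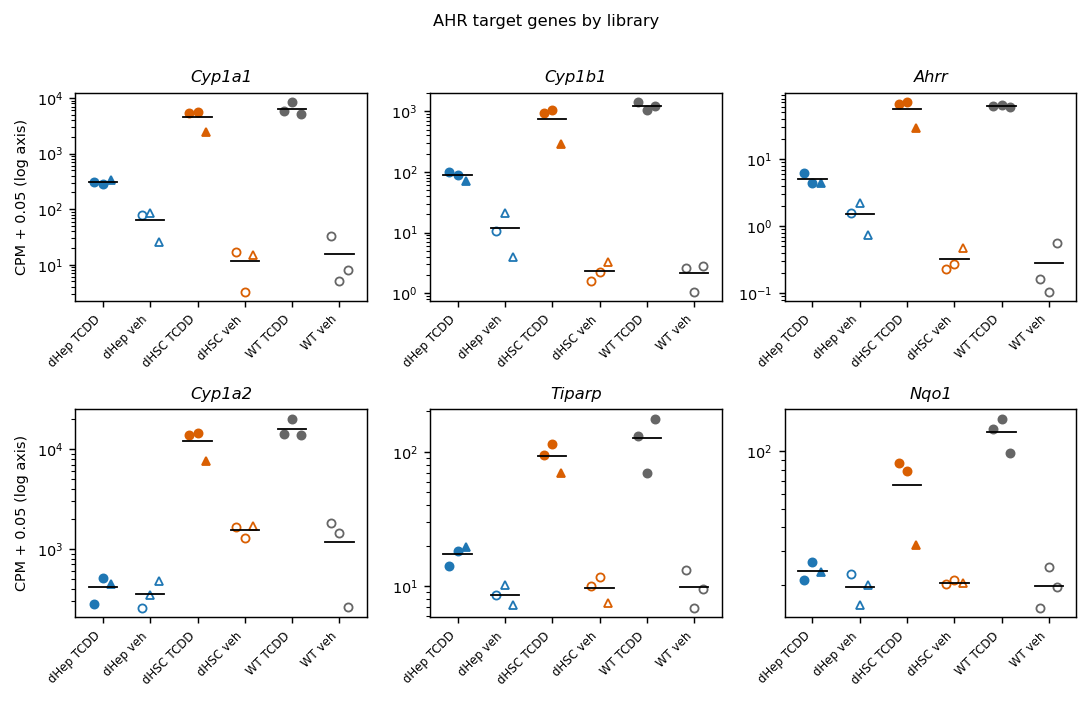
CPM + 0.05 on a log axis for 6 AHR target genes in each library, with the groups in the order dHep TCDD, dHep vehicle, dHSC TCDD, dHSC vehicle, WT TCDD and WT vehicle. Filled symbols are TCDD, open symbols vehicle, triangles the 5 libraries that stand apart and bars group means (n = 3); Cyp1a1 reached 283 to 334 CPM in dHep TCDD livers and 2450 to 5580 CPM in dHSC TCDD livers.

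Of the genes with negative differences, Col9a2 and Pnliprp1 had the largest, and both were under 1 CPM in every dHep library. Col9a2 (chromosome 4, 121039385 to 121055322), which encodes an alpha chain of type IX collagen in cartilage, had 0.216, 0.126 and 0.408 CPM in dHep TCDD livers and 0.0749, 0.833 and 0.302 CPM in dHep vehicle livers. In dHSC livers Col9a2 had 153, 117 and 222 CPM with TCDD and 0, 0 and 0.0703 CPM with vehicle. The dHSC TCDD libraries stood far apart from every other group of the 12. The fitted difference was -13.18 ± 1.16 (adjusted p = 6.51e-05), but its size rests on 1 count in the 3 dHSC vehicle libraries. From those counts the dHSC TCDD to vehicle ratio was 7880, with a 95% exact interval for counting error alone of 1410 to 311000. In WT livers Col9a2 had 138, 191 and 118 CPM with TCDD.

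Pnliprp1, a pancreatic lipase-related protein, had 0 counts in all 3 dHep TCDD livers and 0.112, 0.238 and 0.0755 CPM in dHep vehicle livers. In dHSC livers Pnliprp1 had 5.24, 27.7 and 21.6 CPM with TCDD and 0.0453, 0.0737 and 0 CPM with vehicle. It was raised in each dHSC TCDD library, with a ratio to vehicle of 487 (134 to 4030). In dHep livers its vehicle level, from 8 counts, was 2.52-fold that with TCDD if 3 counts over the TCDD group are taken as the floor. The counting error of the 8 is not in that value. The fitted difference was -13.02 ± 1.64 (adjusted p = 0.00252). Both calls held whichever single library was left out, but without the 5 libraries that stand apart the adjusted p was 0.0593 for Col9a2 and 0.391 for Pnliprp1. Of the pancreas markers Prss2, Cela1 and Cpa1, 2 were at 0 in some library, and the sum of the 3 ran from 10.7 to 16.5 CPM in dHep TCDD and 20.8 to 35.7 CPM in dHep vehicle livers, against 2.58 to 8.41 CPM in dHSC TCDD and 19.4 to 51.8 CPM in dHSC vehicle livers. Cela1, the only one of the 3 counted in all 12 libraries, made up nearly all of that sum, and the part of pancreatic RNA in the Pnliprp1 result was not tested.

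Nptx1, a secreted neuronal pentraxin, had 0.433, 0.753 and 0.817 CPM in dHep TCDD livers and 0.337, 1.13 and 0.528 CPM in dHep vehicle livers. In dHSC livers Nptx1 had 229, 260 and 46.1 CPM with TCDD and 0.362, 0.147 and 0.141 CPM with vehicle. The dHep groups overlapped while the dHSC groups were far apart, for a difference of -9.54 ± 0.97 (adjusted p = 9.78e-05). Ism2, a secreted isthmin, had 0.476, 0.753 and 1.02 CPM in dHep TCDD livers and 0.974, 2.26 and 1.43 CPM in dHep vehicle livers. In dHSC livers Ism2 had 38.1, 29.1 and 28.2 CPM with TCDD and 0.951, 0.589 and 0.633 CPM with vehicle. The Ism2 difference was -6.48 ± 0.62 (adjusted p = 9.24e-05). Trpv4, a calcium-permeable channel, had 1.30, 1.13 and 1.84 CPM in dHep TCDD livers and 0.861, 2.62 and 0.906 CPM in dHep vehicle livers. In dHSC livers Trpv4 had 35.7, 25.1 and 41.7 CPM with TCDD and 0.498, 0.442 and 1.48 CPM with vehicle. The Trpv4 difference was -5.45 ± 0.74 (adjusted p = 0.00256). For Ism2 and Trpv4 every dHSC TCDD library lay above every library of the 3 other groups.

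Pdzrn3, a PDZ-domain ubiquitin ligase, was high in 1 dHep vehicle library as well, with 1.99, 1.26 and 2.65 CPM in dHep TCDD livers and 2.1, 29.9 and 4.53 CPM in dHep vehicle livers. In dHSC livers Pdzrn3 had 71.2, 52.3 and 179 CPM with TCDD and 1.40, 1.69 and 3.87 CPM with vehicle. Its difference was -8.07 ± 1.16 (adjusted p = 0.00426), and without dHep vehicle 9 it was -6.17 (adjusted p = 0.00234). Col4a3, a basement membrane collagen chain, had dHSC TCDD libraries that ranged widely (16.8, 6.67 and 36.5 CPM), a difference of -7.44 ± 1.40 (adjusted p = 0.0266), and -4.46 without the 5 libraries (adjusted p = 0.973). Its call held in 4 of 12 fits with a library left out (adjusted p of up to 0.102). The PDZ adaptor Gipc2 (-6.86), the fatty acid-binding protein Fabp12 (-6.61), the BH3-only death activator Hrk (-6.46) and the kinase Cdk15 (-5.60) had called differences as well, and each of these 4 held its call whichever single library was left out. Without the 5 libraries Cdk15, Pdzrn3, Nptx1, Ism2 and Trpv4 kept theirs, and Gipc2 and Fabp12 (adjusted p = 0.0891 each) and Hrk (0.167) did not. In the fit of only the 12 dHep and dHSC libraries Cdk15 (adjusted p = 0.0558), Gipc2 and Hrk (0.059 each) were not called. Gipc2, Pdzrn3 and Col4a3 lie over other genes, so their counts are less certain.

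Marveld3, Pls1, Cyfip2, Ap1m2, Pkp3 and Patj also had called negative differences and are named after their values were seen. Marveld3, a tight-junction protein, had 1.69, 1.76 and 1.70 CPM in dHep TCDD livers and 1.91, 3.03 and 1.06 CPM in dHep vehicle livers. In dHSC livers Marveld3 had 22.4, 24.3 and 28.4 CPM with TCDD and 1.09, 1.18 and 1.06 CPM with vehicle. Its dHep groups overlapped, its dHSC groups did not, and the difference was -4.72 ± 0.47 (adjusted p = 9.24e-05), or -4.51 without the 5 libraries (adjusted p = 0.00474). The actin-bundling Pls1 had a difference of -4.58 (adjusted p = 0.00818), Cyfip2 of the WAVE complex one of -4.37 (0.00252), the epithelial clathrin adaptor subunit Ap1m2 one of -5.08 (0.0347), the desmosomal Pkp3 one of -2.79 (0.042) and the tight-junction scaffold Patj one of -1.80 (0.0406). Marveld3, Pls1 and Cyfip2 held their call whichever library was left out, whereas Ap1m2 held it in 3 fits of 12, Pkp3 in 4 and Patj in 1, with adjusted p-values of up to 0.124, 0.134 and 0.137. Without the 5 libraries the last 3 were not called either (adjusted p of 0.263 to 0.529). Cyfip2 and Patj lie over other genes. The cholangiocyte markers Krt19, Krt7 and Epcam were counted in all 12 libraries, and their sum ran from 8.53 to 23.7 CPM in dHep TCDD and 6.40 to 84.6 CPM in dHep vehicle livers, against 8.12 to 18 CPM in dHSC TCDD and 4.35 to 9.07 CPM in dHSC vehicle livers. The value of 84.6 CPM was that of dHep vehicle 9, and the median of its group was 15.1 CPM. All 11 cholangiocyte genes tested had a positive change with TCDD in dHSC livers, with a median of 0.90, against 6 of 11 and a median of 0.06 in dHep livers. Their median difference was -1.01, 2 of the 11 had a positive difference, and none was called in either genotype or for the difference. The summed level of these 11 was 137 to 289 CPM in dHep TCDD and 97.7 to 283 CPM in dHep vehicle livers, against 184 to 216 CPM in dHSC TCDD and 65.8 to 128 CPM in dHSC vehicle livers, so that in dHSC livers it was higher with TCDD in every library. The part of these cells in the 6 results was not tested.

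**Figure D3:**
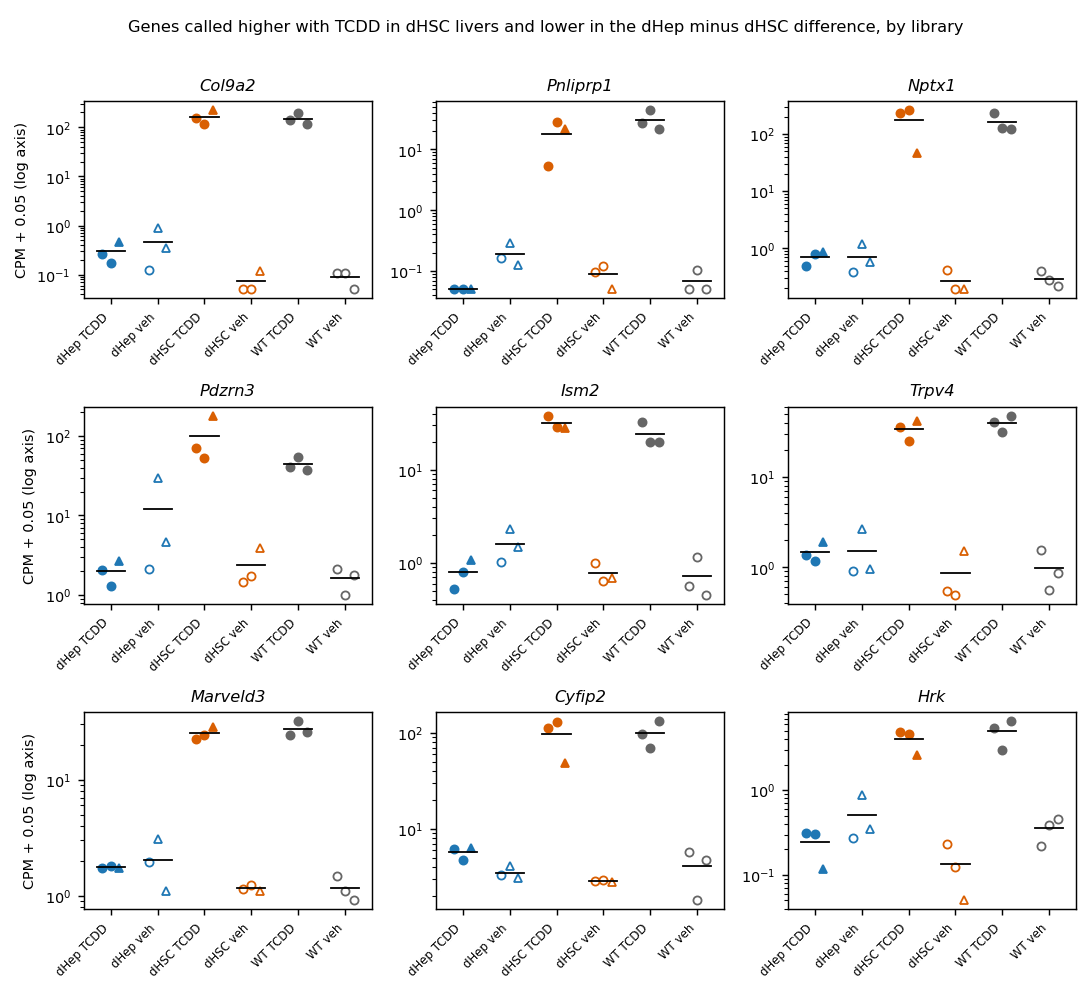
CPM + 0.05 on a log axis in each library for 9 genes called higher with TCDD in dHSC livers and with a called negative difference of dHep minus dHSC; groups run from dHep TCDD at the left to WT vehicle at the right. Filled symbols are TCDD, open symbols vehicle, triangles the 5 libraries that stand apart and bars group means (n = 3); in each panel the dHSC TCDD libraries lie above all dHep TCDD libraries.

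None of the 23 genes with a called positive difference was called with TCDD in dHep livers. Hao1 (chromosome 2, 134497361 to 134554368), the peroxisomal glycolate oxidase of hepatocytes, had 88.1, 140 and 86.5 CPM in dHep TCDD livers and 182, 60.6 and 117 CPM in dHep vehicle livers. In dHSC livers Hao1 had 0.0738, 0.346 and 0.0716 CPM with TCDD and 122, 154 and 107 CPM with vehicle. Only the dHSC TCDD livers of the 12 were under 1 CPM, and the dHep groups overlapped. The log2 change was -0.19 ± 0.51 in dHep livers (adjusted p = 0.961) and -9.41 ± 0.79 in dHSC livers, and the difference was 9.22 ± 0.91 (adjusted p = 9.24e-05), or 8.51 without the 5 libraries (adjusted p = 0.0153). In WT livers Hao1 had 0.412, 0.285 and 0 CPM with TCDD and 144, 208 and 184 CPM with vehicle.

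Mmd2, a member of the progestin and adipoQ receptor family, had 29.9, 18.1 and 13.8 CPM in dHep TCDD livers and 37.6, 30.4 and 50.1 CPM in dHep vehicle livers. In dHSC livers Mmd2 had 0.221, 0.0494 and 0.287 CPM with TCDD and 32.6, 41.2 and 16.9 CPM with vehicle. In dHep livers every TCDD library lay below every vehicle library, though the change of -0.93 ± 0.55 was not called (adjusted p = 0.789), and the difference was 6.46 ± 0.95 (adjusted p = 0.00514). Sult2a7, a sulfotransferase of the hydroxysteroid family, had 41.2, 89.8 and 14.6 CPM in dHep TCDD livers and 150, 85.6 and 214 CPM in dHep vehicle livers. In dHSC livers Sult2a7 had 2.14, 1.33 and 0.645 CPM with TCDD and 240, 434 and 238 CPM with vehicle. Its dHep groups overlapped by 1 library, and the difference was 6.16 ± 0.97 (adjusted p = 0.00818). Hao1, Mmd2 and Sult2a7 held their call whichever single library was left out, while without the 5 libraries Mmd2 was at 7.53 (adjusted p = 0.112) and Sult2a7 at 6.42 (adjusted p = 0.135).

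Serpina7, the thyroxine-binding globulin, had 222, 43.2 and 121 CPM in dHep TCDD livers and 72.4, 31.2 and 68.5 CPM in dHep vehicle livers. In dHSC livers Serpina7 had 2.36, 1.83 and 0.287 CPM with TCDD and 27.5, 12.6 and 17.6 CPM with vehicle. The dHep vehicle libraries already lay above the dHSC vehicle ones, and the difference was 4.84 ± 0.89 (adjusted p = 0.0239). Car3, the carbonic anhydrase III of liver and fat, had 889, 1510 and 1130 CPM in dHep TCDD livers and 1650, 2050 and 3430 CPM in dHep vehicle livers. In dHSC livers Car3 had 131, 100 and 72.1 CPM with TCDD and 2260, 2370 and 2380 CPM with vehicle. Here TCDD libraries lay below vehicle libraries in both genotypes, by more in dHSC livers, and the difference was 3.52 ± 0.67 (adjusted p = 0.0277). Egfr, the receptor of epidermal growth factor, had 353, 251 and 185 CPM in dHep TCDD livers and 338, 149 and 280 CPM in dHep vehicle livers. In dHSC livers Egfr had 40.7, 48.9 and 40.6 CPM with TCDD and 334, 248 and 181 CPM with vehicle. The Egfr difference was 2.59 ± 0.50 (adjusted p = 0.0286). Of the 12 libraries only those of dHSC TCDD livers were under 100 CPM.

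The carboxylesterase Ces3a (3.52), the olfactory-type cytochrome Cyp2g1 (3.52), the sialyltransferase St6galnac6 (4.09), the transcription factor E2f8 that drives hepatocyte polyploidy (4.33), the homeobox gene Irx1 (5.79), the neurexophilin Nxph1 (4.42) and Tmem98 (2.70) also had called positive differences, between 2.70 and 5.79. The size for Irx1 rests on 3 counts over the dHSC TCDD libraries, against 130 with vehicle. From those counts the vehicle to TCDD ratio was 41.5, with a 95% exact interval for counting error alone of 13.9 to 204. Every dHep vehicle library also lay below every dHSC vehicle library for Irx1. The small heat shock gene Hspb1 had 55.8, 35.0 and 58.9 CPM in dHep TCDD livers and 20.4, 16.5 and 28.3 CPM in dHep vehicle livers. In dHSC livers Hspb1 had 4.5, 8.55 and 4.51 CPM with TCDD and 28.9, 12.5 and 26.0 CPM with vehicle. Its TCDD libraries were thus above vehicle in dHep livers and below vehicle in dHSC livers, with log2 changes of 1.20 (adjusted p = 0.623) and -1.93 (adjusted p = 0.0368) and a difference of 3.13 (adjusted p = 0.0449). These calls were close to the threshold. When single libraries were left out, in 12 fits, Serpina7 and Ces3a held their call in 7, E2f8 in 6, Tmem98 in 5, Irx1 and Cyp2g1 in 4, Egfr and Nxph1 in 3, Car3 in 2 and Hspb1 in 1, with adjusted p-values of up to 0.158. St6galnac6 lost it only without dHep vehicle 9 (adjusted p = 0.0516). Without the 5 libraries none of these 11 genes, Serpina7 to Hspb1, was called (adjusted p of 0.0957 to 0.828). E2f8, Egfr, Ces3a and Nxph1 lie over other genes, and Sult2a7 and Ces3a belong to families of close copies among which reads can be split.

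**Figure D4:**
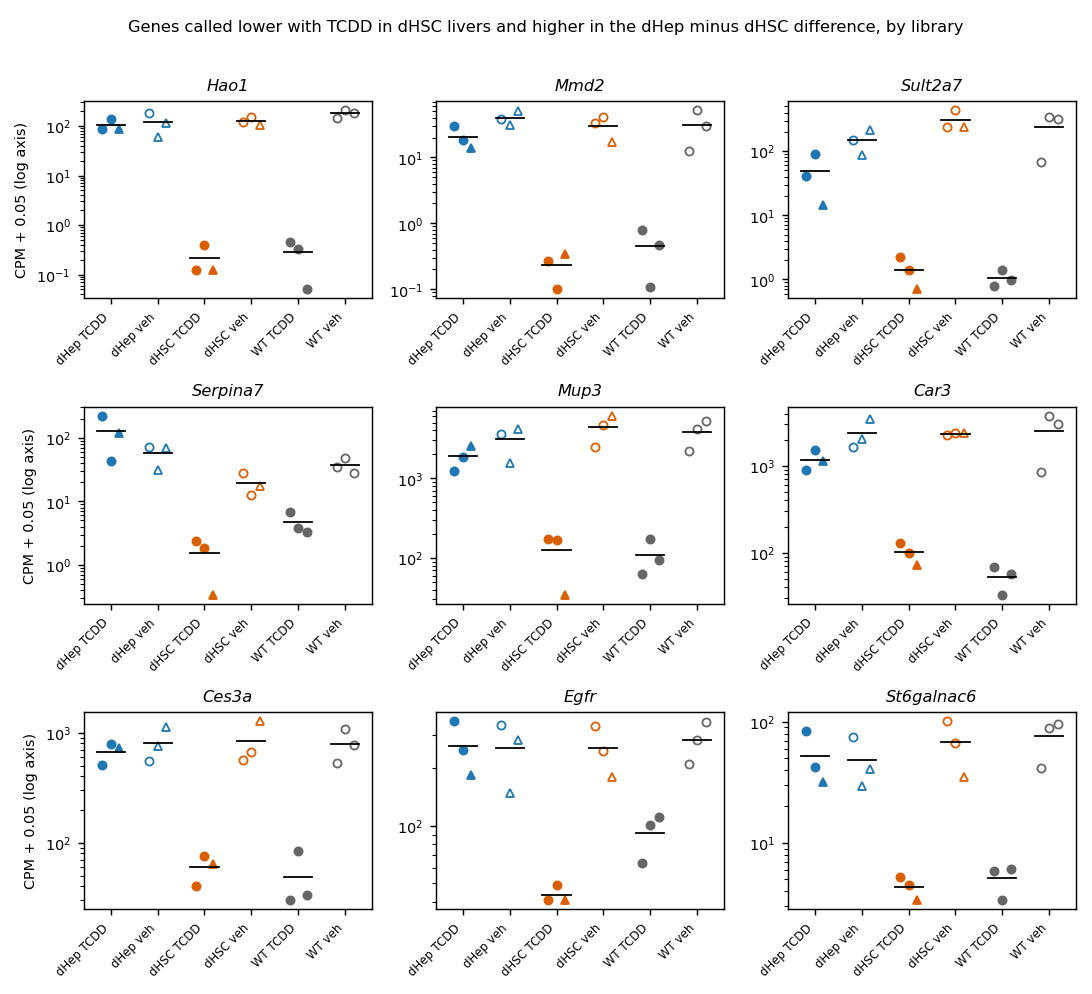
CPM + 0.05 on a log axis in each library for 9 genes called lower with TCDD in dHSC livers and with a called positive difference of dHep minus dHSC; groups run from dHep TCDD at the left to WT vehicle at the right. Filled symbols are TCDD, open symbols vehicle, triangles the 5 libraries that stand apart and bars group means (n = 3); Hao1 was at 86.5 to 140 CPM in dHep TCDD livers and under 1 CPM in dHSC TCDD livers.

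The other 6 called differences went the other way, with the larger change in dHep livers, and 5 of the 6 genes, all but Prkca, were called lower with TCDD there. All but Mup-ps10, which the rule for named genes given further below picked, are named after their values were seen. Mup-ps12, a pseudogene of the major urinary proteins, which liver secretes as pheromone carriers, had 1.13, 1.26 and 1.09 CPM in dHep TCDD livers and 7.68, 48.2 and 35.1 CPM in dHep vehicle livers. In dHSC livers Mup-ps12 had 22.4, 19.1 and 46.4 CPM with TCDD and 11.2, 20.7 and 44.7 CPM with vehicle. The dHep TCDD libraries lay below all others, and the dHSC groups overlapped. The log2 change was -4.70 ± 0.65 in dHep livers (adjusted p = 0.00943) and 0.20 ± 0.54 in dHSC livers (adjusted p = 0.987), and the difference was -4.90 ± 0.82 (adjusted p = 0.0133).

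Mup-ps14 had 0.952, 0.942 and 1.02 CPM in dHep TCDD livers and 6.18, 26.5 and 24.5 CPM in dHep vehicle livers. In dHSC livers Mup-ps14 had 23.0, 15.2 and 36.4 CPM with TCDD and 9.78, 18.3 and 38.5 CPM with vehicle. The Mup-ps14 difference was -4.45 ± 0.77 (adjusted p = 0.0151). Mup-ps10 had 0.389, 0.314 and 0.748 CPM in dHep TCDD livers and 3.26, 20.3 and 25.4 CPM in dHep vehicle livers. In dHSC livers Mup-ps10 had 29.4, 24.1 and 38.4 CPM with TCDD and 5.66, 13.6 and 40.6 CPM with vehicle. The Mup-ps10 difference was -5.70 ± 1.04 (adjusted p = 0.0237). In all 3 pseudogenes the highest dHep vehicle libraries were mice 9 and 15 and the highest dHSC library was mouse 17 or 18, which are among the 5 that stand apart. Without those 5 the differences were -3.06 for Mup-ps12 (adjusted p = 0.0593), -3.14 for Mup-ps14 (0.112) and -4.65 for Mup-ps10 (0.0879). Mup-ps12 also lost its call without dHep TCDD 4 alone (adjusted p = 0.0552). Mup-ps14 lost it without dHep TCDD 4, dHep vehicle 9, dHep TCDD 10 or dHSC vehicle 11, with adjusted p-values of up to 0.0575, and Mup-ps10 without any of the same 4 or dHep vehicle 15, with values of up to 0.0908. None of the 3 pseudogenes was called in the fit of only the 12 dHep and dHSC libraries (adjusted p of 0.0803 to 0.0922).

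Of the 49 annotated Mup genes 28 were tested, and these lie on chromosome 4 between 60066469 and 62150863. Many of the copies are near-identical, so how reads were shared among them is uncertain. Of the 19 protein-coding Mup genes tested, 17 had a negative change with TCDD in dHep livers and 18 in dHSC livers. Those called lower numbered 1 in dHep livers, 11 in dHSC livers and 5 in WT livers, where 0.0404%, 0.843% and 1.95% of all genes were, and the median log2 changes were -3.03, -3.43 and -2.30. Of the 9 pseudogenes tested, 8 had a negative change in dHep livers and 5 in dHSC livers. Those called lower numbered 3 in dHep livers, 0 in dHSC livers and 0 in WT livers, with medians of -3.47, -0.46 and -0.26.

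Among the coding members Mup3 had 1230, 1860 and 2570 CPM in dHep TCDD livers and 3570, 1580 and 4140 CPM in dHep vehicle livers. In dHSC livers Mup3 had 174, 170 and 34.1 CPM with TCDD and 2500, 4650 and 6120 CPM with vehicle. Its dHSC TCDD libraries lay below all dHep libraries, and the difference was 4.42 ± 0.86 (adjusted p = 0.0319), which held in 2 of 12 fits with a library left out and not without the 5 libraries (3.17, adjusted p = 0.525). Mup17 had 29.0, 37.2 and 20.7 CPM in dHep TCDD livers and 608, 1260 and 3220 CPM in dHep vehicle livers. In dHSC livers Mup17 had 399, 211 and 178 CPM with TCDD and 574, 2030 and 8430 CPM with vehicle. It fell in both genotypes, with log2 changes of -5.87 in dHep livers (adjusted p = 0.0259) and -3.81 in dHSC livers (adjusted p = 0.0227), and its difference of -2.06 ± 1.08 was not called (adjusted p = 0.587).

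Gm13775, a transcript within the Mup cluster, had 12.4, 25.2 and 9.59 CPM in dHep TCDD livers and 97.8, 258 and 187 CPM in dHep vehicle livers. In dHSC livers Gm13775 had 96.1, 63.2 and 140 CPM with TCDD and 96.8, 111 and 174 CPM with vehicle. The Gm13775 difference was -3.17 (adjusted p = 0.0426). Lnx1, a ubiquitin ligase, had 0.606, 1.44 and 2.18 CPM in dHep TCDD livers and 6.18, 14 and 16.2 CPM in dHep vehicle livers. In dHSC livers Lnx1 had 6.20, 5.78 and 14.4 CPM with TCDD and 5.16, 3.83 and 5.42 CPM with vehicle. The Lnx1 difference was -3.98 ± 0.73 (adjusted p = 0.0239). For both, the dHep TCDD libraries lay below the libraries of the other 3 groups. Prkca, the protein kinase C alpha, moved by less in each genotype, with -1.18 in dHep livers (adjusted p = 0.318) and 0.88 in dHSC livers (adjusted p = 0.152), and only the difference of -2.06 ± 0.41 was called (adjusted p = 0.04). Lnx1, Gm13775 and Prkca all lie over other genes and kept their call in 5, 2 and 2 of those 12 fits and lost it without the 5 libraries (adjusted p of 0.415 to 0.791).

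**Figure D5:**
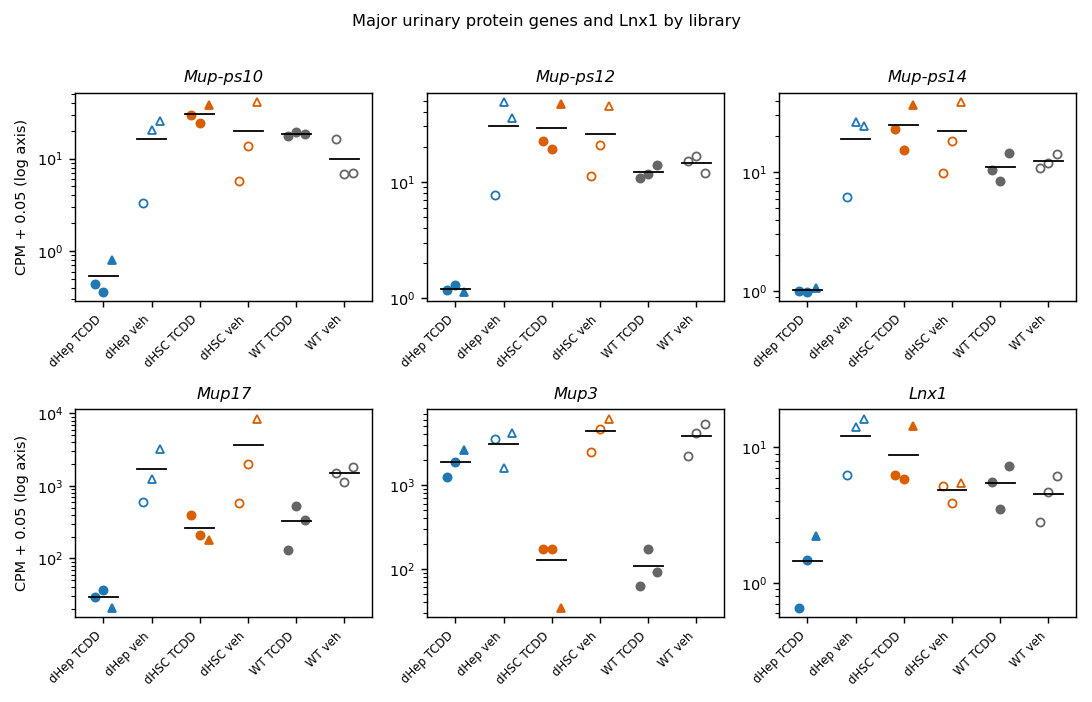
CPM + 0.05 on a log axis in each library for 5 Mup family members and Lnx1; groups run from dHep TCDD at the left to WT vehicle at the right. Filled symbols are TCDD, open symbols vehicle, triangles the 5 libraries that stand apart and bars group means (n = 3); the 3 pseudogenes were at 0.314 to 1.26 CPM in dHep TCDD livers and at 15.2 CPM or more in dHSC TCDD livers, whereas Mup3 was lowest in dHSC and WT livers given TCDD.

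In both genotypes 5 genes were called with TCDD, 4 higher and 1, Mup17, lower, and none of the 5 had a called difference. Mmp13, an interstitial collagenase, had 9.39, 6.34 and 11 CPM in dHep TCDD livers and 0.524, 1.49 and 0.453 CPM in dHep vehicle livers. In dHSC livers Mmp13 had 14.8, 12.4 and 13.3 CPM with TCDD and 0.362, 0.368 and 0.844 CPM with vehicle. TCDD and vehicle libraries were apart in both genotypes, with log2 changes of 3.43 in dHep livers and 4.69 in dHSC livers and a difference of -1.25 ± 0.65 (adjusted p = 0.585). Adamdec1, a metalloproteinase-like gene of macrophages, had 30.4, 21.3 and 37.8 CPM in dHep TCDD livers and 6.55, 9.40 and 2.87 CPM in dHep vehicle livers. In dHSC livers Adamdec1 had 32.5, 28.0 and 31.0 CPM with TCDD and 3.89, 6.26 and 5.98 CPM with vehicle. The Adamdec1 difference was -0.26 ± 0.53 (adjusted p = 0.917). Its TCDD levels overlapped between the genotypes. Apol7c, of the apolipoprotein L family, changed by 3.67 in dHep livers and 6.54 in dHSC livers, with a difference of -2.87 ± 0.85 (adjusted p = 0.237), and with TCDD its levels differed by 0.32 ± 0.53 between dHep and dHSC livers (adjusted p = 0.904). The pseudogene Gm8221 changed by 3.62 and 4.55, with a difference of -0.93 ± 0.79 (adjusted p = 0.777).

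Of 39 gene lists for liver functions and cell types, 3 held a gene with a called difference, as 0.431% of all genes had: the AHR targets above, the sulfotransferases and the sex-biased and growth hormone-dependent genes. Of the 12 sulfotransferases tested, which make steroids and xenobiotics water-soluble, 2 had a called positive difference, Sult2a7 and Sult1a1, against 0.155% of all genes, and the median difference was 1.17. Sult1a1, the phenol sulfotransferase, had 574, 709 and 510 CPM in dHep TCDD livers and 437, 296 and 463 CPM in dHep vehicle livers. In dHSC livers Sult1a1 had 226, 186 and 109 CPM with TCDD and 429, 510 and 536 CPM with vehicle. It was above vehicle in dHep livers and below vehicle in dHSC livers without overlap in either, for a difference of 2.09 ± 0.43 (adjusted p = 0.0449) that was lost whenever 1 library was left out (adjusted p of up to 0.158) and without the 5 libraries (adjusted p = 0.511). Sult3a2 had a difference of 6.25 ± 1.35 (adjusted p = 0.0549). With TCDD against vehicle, 0 of the 12 were called in dHep livers, 5 were called lower in dHSC livers and 6 in WT livers, against 0.843% and 1.95% of all genes in those genotypes.

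Of the 24 sex-biased and growth hormone-dependent genes tested, Hao1 and Egfr had a called positive difference, against 0.155% of all genes, none had a negative one, and the median was 0.93. With TCDD, 1 of the 24, Mup17, was called lower in dHep livers, 6 were called lower in dHSC livers and 9 in WT livers, where 0.0404%, 0.843% and 1.95% of all genes were. The other 36 lists held no called difference, which at 0.431% of all genes says little about a list, and their medians ran from -2.81 to 1.26.

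The 25 fibrillar collagen and scar matrix genes tested had a median difference of -0.10, and median log2 changes with TCDD of 0.75 in dHep livers, 0.76 in dHSC livers and 1.06 in WT livers. No difference was called among them, but with 0.431% of all genes called a list of this size need not hold any. With TCDD, 0, 1 and 6 of the 25 were called higher in dHep, dHSC and WT livers, against 0.027%, 1.71% and 3.43% of all genes. Col1a1 had a difference of -0.51 (adjusted p = 0.884), Col1a2 one of -0.91 (0.765) and Col3a1 one of -0.31 (0.911). Acta2, the smooth muscle actin of myofibroblasts, had 13.8, 3.26 and 28.4 CPM in dHep TCDD livers and 1.42, 83.8 and 6.79 CPM in dHep vehicle livers. In dHSC livers Acta2 had 4.87, 3.56 and 11.3 CPM with TCDD and 3.44, 6.26 and 5.28 CPM with vehicle. The highest and the lowest of the 12 libraries were both dHep vehicle livers, the difference was -1.42 ± 1.55 (adjusted p = 0.841), and without dHep vehicle 9 alone it was 1.51 ± 1.28 (adjusted p = 1). Of the 12 quiescent stellate cell genes tested, none was called, and the median difference was 0.17.

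For the B and plasma cell list and the neutrophil list 1 of the 12 livers stood far above the rest. All 8 B and plasma cell genes tested had a negative difference, with a median of -2.81. Their summed level was 32.3 to 53.1 CPM in dHep TCDD livers and 31.2 to 55.3 CPM in dHep vehicle livers. In dHSC vehicle livers it was 18.2 to 30.9 CPM. In dHSC TCDD livers it was, from lowest to highest, 36.6, 59.5 and 298 CPM, the last in dHSC TCDD 18. Ighm had a difference of -2.04 (adjusted p = 0.47), and of -0.72 without that library (adjusted p = 1), and none of the 8 had a called difference. The 10 neutrophil genes tested had a median of -1.89. S100a8 had 2.90, 3.33 and 10.3 CPM in dHep TCDD livers and 1.24, 6.72 and 2.11 CPM in dHep vehicle livers, against 3.98, 3.36 and 58.2 CPM in dHSC TCDD livers and 0.362, 0.589 and 1.76 CPM in dHSC vehicle livers, and its difference was -3.90 ± 1.37 (adjusted p = 0.373), or -1.33 without dHSC TCDD 18 (adjusted p = 1). The same library was the highest of its group for both sets. With TCDD, 5 of the 8 B and plasma cell genes were called higher in dHSC livers and 4 in WT livers. Of the 10 neutrophil genes 4 and 7 were, against 1.71% and 3.43% of all genes, and in dHep livers 0 of either list. In WT livers the summed levels were 75.8 to 148 CPM with TCDD and 14.1 to 36.5 CPM with vehicle for B and plasma cell genes. For neutrophil genes they were 90.6 to 119 CPM and 4.37 to 8.61 CPM.

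Between dHep vehicle and dHSC vehicle livers edgeR called 0 genes (0%), 491 had an unadjusted p under 0.05, the smallest adjusted p was 0.316, and DESeq2 called 7. For the 3 AHR targets with a called difference, though, every dHep vehicle library lay above every dHSC vehicle library, by 2.45 ± 0.70 log2 for Cyp1a1, 2.38 ± 0.58 for Cyp1b1 and 2.43 ± 0.59 for Ahrr (adjusted p = 0.928 for each). The difference of responses takes in these vehicle gaps, and for these genes the gap between dHep TCDD and dHSC TCDD livers was the smaller value, at -3.87 ± 0.74 for Cyp1a1 (adjusted p = 0.0116), -3.11 ± 0.57 for Cyp1b1 (adjusted p = 0.00897) and -3.47 ± 0.49 for Ahrr (adjusted p = 0.00145).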

How the data were processed

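Each deposited file holds the authors' raw counts per gene for 1 library of mouse liver mRNA, made from poly-T selected RNA (RNA integrity number above 6.8) with a NEBNext Ultra kit, per the labels. Per the submitters' processing notes reads were handled with HISAT2 2.1.0, DESeq2 1.22.2, HTSeq 0.11.3 and FastQC 0.11.9 on the build GRCm38. The counting settings, strand included, are not given in the sources used here, so genes that overlap others are less certain. Gene names and coordinates came from GENCODE M21.

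The counts of all 18 libraries were fitted in edgeR 4.0.16 (R 4.3.3) with filterByExpr, TMM scaling and 1 mean per group, and tested by quasi-likelihood with Benjamini-Hochberg adjustment over 14835 genes. Calls were made where that p was under 0.05, SEs are the log2 change over the square root of F, and CPM are TMM-scaled. The biological coefficient of variation came to 0.448 (common dispersion 0.2). The fit was checked on simulated data. No 2 files were identical, and correlations were 0.843 to 0.983 within groups and 0.81 to 0.986 between them. The labels name 1 mouse per library but no cages, litters or batches.

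Named genes were the 15 largest called differences each way averaging 1 CPM or more under a symbol that is no predicted-gene name, the called members of lists, genes called in both responses, the 2 highest members of each list, the 5 largest each way between genotypes within a treatment, and 16 genes set by name. The members, lists and tests were chosen with earlier results of these data known. The 39 lists hold 584 genes, of which 532 were tested, and no set test was run. Alternatives were RLE scaling, other count filters, a fit of 12 libraries, a fold threshold (1.5), a covariate, a block, leaving out libraries, and DESeq2 1.42.0.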

Additional observations from a re-analysis of the deposited data

Results flagged for a closer look

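For 36 named genes the response to TCDD differed between dHep and dHSC livers by a test of that difference itself, edgeR's quasi-likelihood test at an adjusted p under 0.05 over all genes tested. No test for a single extreme value within a group was run, since each group holds 3 livers, and the 5 libraries that stand apart were found by their share of counts outside protein-coding genes. The values below are log2 differences of responses, dHep minus dHSC.

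Negative differences belonged to 20 of them: Col9a2 (-13.18), Pnliprp1 (-13.02), Nptx1 (-9.54), Pdzrn3 (-8.07), Col4a3 (-7.44), Gipc2 (-6.86), Fabp12 (-6.61), Ism2 (-6.48), Hrk (-6.46), Cyp1a1 (-6.33), Ahrr (-5.90), Mup-ps10 (-5.70), Cdk15 (-5.60), Cyp1b1 (-5.49), Trpv4 (-5.45), Mup-ps12 (-4.90), Mup-ps14 (-4.45), Lnx1 (-3.98), Gm13775 (-3.17) and Prkca (-2.06). Positive differences belonged to the other 16: Hao1 (9.22), Mmd2 (6.46), Sult2a7 (6.16), Irx1 (5.79), Serpina7 (4.84), Mup3 (4.42), Nxph1 (4.42), E2f8 (4.33), St6galnac6 (4.09), Car3 (3.52), Ces3a (3.52), Cyp2g1 (3.52), Hspb1 (3.13), Tmem98 (2.70), Egfr (2.59) and Sult1a1 (2.09). The remaining 28 genes with a called difference, 7 positive (1.93 to 8.13) and 21 negative (-8.25 to -1.65), fell outside the rule for named genes, as did some of the 36 that are said above to be named after their values were seen. Of the 28, Gm7086 (8.13) and Gm19572 (-8.25) are pseudogenes near 0 in most libraries. Gm7086 had 0 counts in the dHSC TCDD livers and 28 counts in the dHSC vehicle livers. With a floor of 3 counts over the TCDD group that is 8.93-fold lower, leaving out the counting error of the vehicle counts. Gm19572 had 2 counts in the dHSC vehicle livers.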

How the results depend on the processing

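All 64 called differences kept their sign in every setting run. Counts of called differences, 64 in the fit reported, were 68 with RLE scaling, 68 with at least 1 CPM in 3 libraries, 87 without a filter, 63 with a block of 6 consecutive mouse numbers, 27 with only the 12 libraries, 40 when a change of at least 1.5-fold was tested, 131 with the percent outside protein-coding genes as covariate, 13 without the 5 libraries that stand apart and 237 with DESeq2. Of the 64 genes, 64 kept their call with RLE scaling, the covariate or DESeq2, 52 with the block and 24 with the 12 libraries. The 12 not called with the block were Mup3 and Patj (adjusted p = 0.0572 each), Sult1a1, Ap1m2 and Prkca (0.0577 each), Fyb2 (0.0591), Gm7086 (0.0671), Hspb1 (0.0676), and Nxph1, Pkp3, Insl6 and Rapgefl1 (0.0691 each).

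For the dHep response (10 genes reported) the counts that moved by over 1.5 times were 19 without a filter, 0 with the 12 libraries, 41 with the covariate, 0 without the 5 libraries and 86 with DESeq2. For the dHSC response (379) they were 232 at 1.5-fold, 792 with the covariate, 214 without the 5 libraries and 763 with DESeq2. For dHep against dHSC livers with TCDD (220) they were 130 at 1.5-fold, 538 with the covariate and 489 with DESeq2, and with vehicle (0) 7 with DESeq2. The 1.5-fold setting asks for more and the smaller fits hold fewer libraries. For the covariate, the filter and DESeq2 the cause was not tested.

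Leaving out 1 library at a time gave 24 to 61 called differences, and 21 of the 64 genes held in all 12 fits. The count was 27 without dHep TCDD 4, 31 without dHep TCDD 10, 24 without dHep vehicle 9, 41 without dHSC TCDD 6, 34 without dHSC TCDD 12, 36 without dHSC vehicle 5 and 33 without dHSC vehicle 11. For the dHep response the range was 0 to 11, with 0, 2 and 1 without dHep TCDD 4, 10 and 16 and 3 without dHep vehicle 15. For the dHSC response it was 169 to 297, with 200, 169 and 238 without dHSC vehicle 5, 11 and 17. With TCDD it was 99 to 175, with 99, 123 and 136 without dHep TCDD 4, 10 and 16 and 132 and 130 without dHSC TCDD 6 and 12, and with vehicle 0 to 0. No paired analysis was possible because no mouse number recurs across the groups, and the block above only follows mouse order. With 3 livers a group and a biological coefficient of variation of 0.448, only large differences could be called, and low genes such as Col9a2 have fitted folds that rest on few counts.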

Other observations

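All 14 cholesterol synthesis genes tested had a positive difference of responses, with a median of 1.26, though none was called. Their median log2 change with TCDD was 0.46 in dHep livers, -0.97 in dHSC livers and -0.32 in WT livers, and the summed level of the list was 2940 to 4620 CPM in dHep TCDD livers and 2900 to 4140 CPM in dHep vehicle livers, against 933 to 2330 CPM in dHSC TCDD livers and 1860 to 4200 CPM in dHSC vehicle livers. Sc5d, the sterol desaturase of that pathway, had a difference of 1.21 (adjusted p = 0.587), and Hmgcs1, which makes HMG-CoA, one of 0.33 (adjusted p = 0.932). Of the 33 CYP3A and CYP2 cytochromes tested, 25 had a positive difference, with a median of 0.62, and of the 20 hepatocyte identity genes 16 did, with a median of 0.57. None of these was called, though Cyp2g1, a CYP2 gene outside that list, had a called difference of 3.52 as given above. The summed level of the cytochromes was 8140, 22500 and 22600 CPM in dHSC TCDD livers, from lowest to highest, so 1 liver lay far below the others. In dHSC vehicle livers it was 23900 to 27200 CPM. Without the 5 libraries that stand apart the difference was 0.56 for Cyp2e1, against 1.16 with them. For Cyp3a11 it was -0.67 against 0.26, for Alb -0.23 against -0.06 and for Apoa2 0.68 against 0.60.

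The 8 genes of MHC class II tested had a median log2 change with TCDD of 1.30 in dHep livers and 1.30 in dHSC livers. Their differences ran from -3.36 to 0.57, with a median of 0.12 and none called, and 0 of them were called higher in dHep livers and 4 in dHSC livers, against 0.027% and 1.71% of all genes. All 13 mitochondrially encoded genes tested had a negative difference, with a median of -1.28. Their summed level was 42900 to 99200 CPM in dHep TCDD livers and 65800 to 120000 CPM in dHep vehicle livers. In dHSC vehicle livers it was 55400 to 90800 CPM. In dHSC TCDD livers it was, from lowest to highest, 46400, 49400 and 262000 CPM, the last in dHSC TCDD 18. Without that library the difference of mt-Co1 was -0.19, against -1.30 with it, and that of mt-Cytb was 0.88, against -0.74. All 12 myofibroblast contractile genes tested had a higher fitted level in dHep vehicle than in dHSC vehicle livers, by a median of 1.56, and none was called. In dHep vehicle livers their summed level was, from lowest to highest, 86.8, 148 and 483 CPM, the last in dHep vehicle 9. In dHSC vehicle livers it was 103, 107 and 131 CPM, again from lowest to highest, so the groups overlapped.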
